A study of Mus musculus with 8 samples.

Results

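The cells described here were the dendritic cells (DC) with the highest Xcr1 level among the immune cells that entered transplanted mouse beta cell grafts. They were found by taking every cell that the authors had annotated as DC, keeping each of their clusters that held at least 50 such cells, and choosing the cluster in which Xcr1 had the largest share of all transcript molecules. This was cluster 19, with 341 cells of 1104 DC and of 22441 cells in all, and every cell of the cluster carried the DC annotation. NIT-1, a beta cell line from the nonobese diabetic (NOD) mouse, was injected under the skin of immunodeficient NOD.scid mice, with wild-type (WT) cells in one flank and Rnls mutant cells (KO in the labels) in the other. Splenocytes of recently diabetic NOD mice were given intravenously afterwards, and grafts were taken 10 or 17 days later, digested with collagenase and sorted for live CD45+ cells. Of the 4 libraries, 1 was made for each genotype and day, from 4 grafts marked by hashtag antibodies, so that the groups were WT day 10, Rnls mutant day 10, WT day 17 and Rnls mutant day 17 with 4 grafts each. The mutation was carried by the grafted NIT-1 cells and not by the sequenced cells, all hosts carried the scid mutation, which leaves them without T and B cells of their own, and the host or donor origin of a DC was not marked. Because every group was a single library, group and library cannot be told apart, and which WT and mutant grafts shared a mouse was not given for these libraries.

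Conventional type 1 DC (cDC1) are the DC subset that takes up dead cells and presents their proteins on MHC class I molecules to CD8 T cells, a process called cross-presentation. They carry XCR1, the receptor for the chemokine XCL1 made by NK and CD8 T cells, and CLEC9A, a receptor for actin filaments exposed by dead cells. Their development rests on the transcription factors IRF8 and BATF3 and on FLT3 ligand, and they are a source of CXCL9 and IL-12 in inflamed tissue.

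Both markers given for the cluster bore out its label. The level of a gene is its number of unique molecular identifiers (UMIs, 1 per captured transcript) divided by all UMIs of the cells named, written as counts per 1000000 (CPM). Xcr1 (chr9:123852315-123862029, minus strand on GRCm38) was counted 938 times in the cluster, which is 251 CPM, against 2.70 CPM in cluster 17 (386 cells) and 3.099 CPM in cluster 21 (240 cells). In cluster 25 (137 cells) it was at 0 UMIs, which allows up to 4.88 CPM. The cluster held 93.7% of all Xcr1 UMIs of the study, and 78.6% of its cells had at least 1 (exact 95% interval 73.9 to 82.8) at a median depth of 9743 UMIs per cell, against 0.144% of CD4 T cells at a median of 2823.5. Clec9a (chr6:129408862-129424763, plus strand) reached 219.7 CPM and was less restricted, with 57.5, 27.9 and 55.4 CPM in clusters 17, 21 and 25, UMIs in 77.7% of the cluster's cells and in none of 4876 CD4 T cells. Since these levels or genes like them were used to cluster and choose the cells, they are a description and were not tested.

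Of 20 listed cDC1 markers, 17 were highest in this cluster among the 4 DC clusters. Among them were Tlr3, a sensor of double-stranded RNA in endosomes, at 77.1 CPM, Itgae, which encodes the integrin CD103, at 175 CPM, and Wdfy4, needed for cross-presentation of cell-bound antigen, at 607 CPM. The exceptions were Cadm1 and Cd8a, which were higher in cluster 25 at 614 and 66.8 CPM than here at 368 and 22.2 CPM, and Ly75, which encodes the uptake receptor DEC-205 and was higher in cluster 21 at 521 against 107 CPM. Summed over the list, the cDC1 markers came to 5562 CPM in cluster 19 and to 786, 813 and 1264 CPM in clusters 17, 21 and 25. The lists for other DC were led by other clusters, with 2096 CPM of cDC2 markers in cluster 17, 25697 CPM of mature DC markers in cluster 21 and 12838 CPM of plasmacytoid DC markers in cluster 25, against 287, 1133 and 287 CPM here. As background, cDC1 that mature and migrate lose part of their subset markers, and whether cluster 21 held such cells was not tested.

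**Figure D1:**
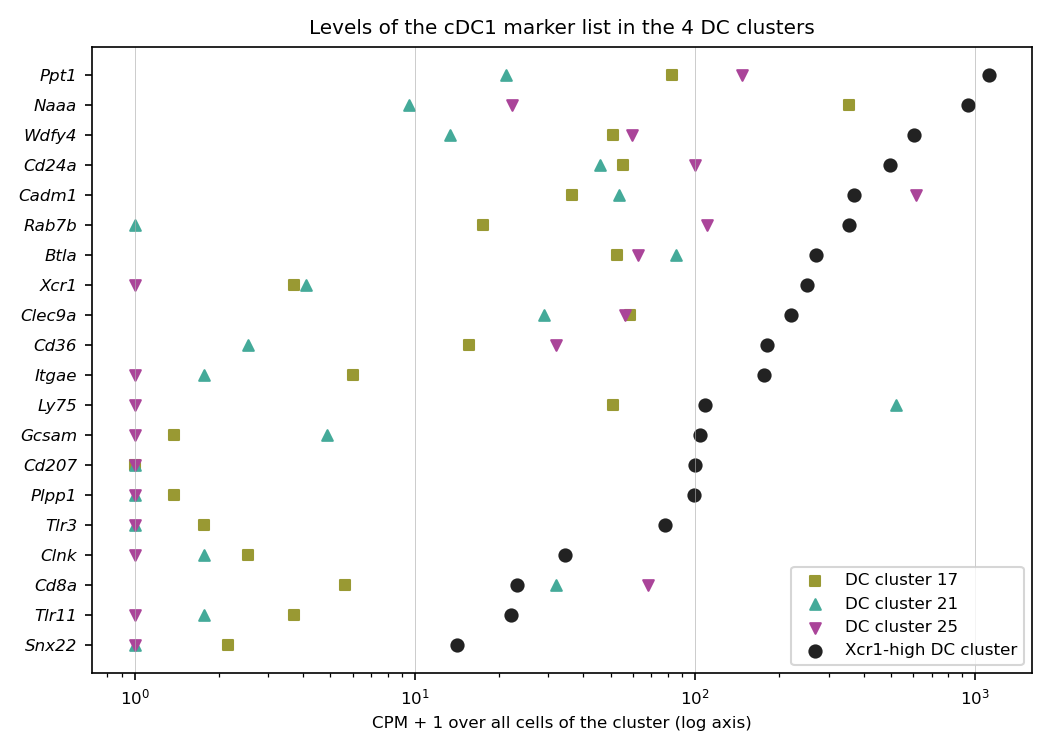
Level of each listed cDC1 marker in the 4 DC clusters, as CPM + 1 over all cells of a cluster on a log axis. Black circles are the Xcr1-high cluster, which lies to the right of the other 3 clusters for 17 of 20 genes, with Cadm1, Cd8a and Ly75 as the exceptions.

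By the ratio of CPM in the cluster to CPM in all other DC, the leading genes at 50 CPM or more were Plpp1, Gpr141b, Tlr3, Cd207 and Xcr1. Cd207, which encodes langerin, a lectin carried by Langerhans cells and by CD103+ DC, was counted 369 times in the cluster and never in the other DC, which makes it at least 148-fold higher against a limit of 3 UMIs. Plpp1, a lipid phosphatase, had 366 UMIs against 1 (ratio 440.4, exact 95% interval 78.6 to 17444), and Tlr3 had 288 against 2 (ratio 173, 47.5 to 1438). Itgae had a ratio of 56.2, Gcsam of 77.4 and Ccser1 of 58.5. The S phase genes Hist1h1b, Hist1h2ap and Pclaf also stood among the 20, at ratios of 40.0, 24.9 and 20.6. These intervals and limits cover counting error only.

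Transcripts of T, NK, B and beta cells and of granulocytes were sparse, and those of macrophages and monocytes less so. The 15 T and NK cell markers came to 12.6 CPM in sum, with 3 at 0, the 8 granulocyte markers to 4.55 CPM, with 3 at 0, the 8 B cell markers to 90.4 CPM, with 2 at 0, and all 12 beta cell transcripts were at 0. The 16 macrophage and monocyte markers summed to 725 CPM, with 1 at 0, against 2243, 297 and 837 CPM in clusters 17, 21 and 25. In the Xcr1-high cluster this sum ranged from 262 to 696 CPM in day 10 grafts and from 674 to 1845 CPM in day 17 grafts. The 4 libraries held 2690 to 7617 cells, with a median of 3083 to 5902 UMIs per cell. In the cluster the median was 10267.5 UMIs in WT day 10, 9265.5 in Rnls mutant day 10, 15239 in WT day 17 and 7467 in Rnls mutant day 17. Of 22399 distinct barcodes, 42 occurred in more than 1 library, among them that of 1 cell of the cluster.

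The cluster made up a larger share of the DC at day 17 than at day 10. In WT grafts its share of DC was 7.50, 28.6, 21.1 and 25.2% at day 10 and 38.1, 46.4, 90.0 and 33.3% at day 17, and in Rnls mutant grafts it was 6.67, 20.3, 36.4 and 13.1% and 59.0, 51.3, 62.3 and 66.7% (grafts 1 to 4). Group means were 20.6% ± 9.24 (SD, n = 4), 52.0% ± 25.9 (SD, n = 4), 19.1% ± 12.8 (SD, n = 4) and 59.8% ± 6.49 (SD, n = 4) in the same order. Over both genotypes the mean rose from 19.8% to 55.9%, by 36.0 percentage points (two-sided exact permutation test of days within genotype, p = 0.000408, the smallest p this design allows; Benjamini-Hochberg adjusted over 6 share tests, 0.00245). The days overlapped in a single pair of values, since graft 3 of Rnls mutant day 10 lay above graft 4 of WT day 17. Within a genotype the difference was 31.4 points in WT and 40.7 points in mutant grafts (exact p = 0.0286 each, the smallest possible with 4 against 4, adjusted over 21 tests of shares by day 0.0545).

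Of all CD45+ cells the cluster was a small part, and its change with the day did not pass the test. The shares were 0.321, 2.14, 1.41 and 1.98% in WT day 10, 0.300, 0.858, 1.71 and 0.761% in Rnls mutant day 10, 0.914, 3.71, 4.05 and 1.13% in WT day 17 and 1.86, 1.23, 2.39 and 1.83% in Rnls mutant day 17. The means were 1.19% at day 10 and 2.14% at day 17, a difference of 0.955 points (exact permutation p = 0.0706, adjusted 0.212). The other DC together fell from 4.51% to 1.66% of CD45+ cells (exact permutation p = 0.000816, adjusted over the 21 tests 0.00571). Of the other clusters, 17 went from 2.37% to 0.622% (exact permutation p = 0.000816) and 21 from 1.47% to 0.521% (exact permutation p = 0.00449), while 25, at 0.671% and 0.522%, did not pass (exact permutation p = 0.263). Clusters 17, 21 and 25 were 52.8%, 32.2% and 15.01% of 653 other DC at day 10 and 37.3%, 27.3% and 35.5% of 110 at day 17. All shares are shares of sorted cells and do not give the number of DC in a graft.

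**Figure D2:**
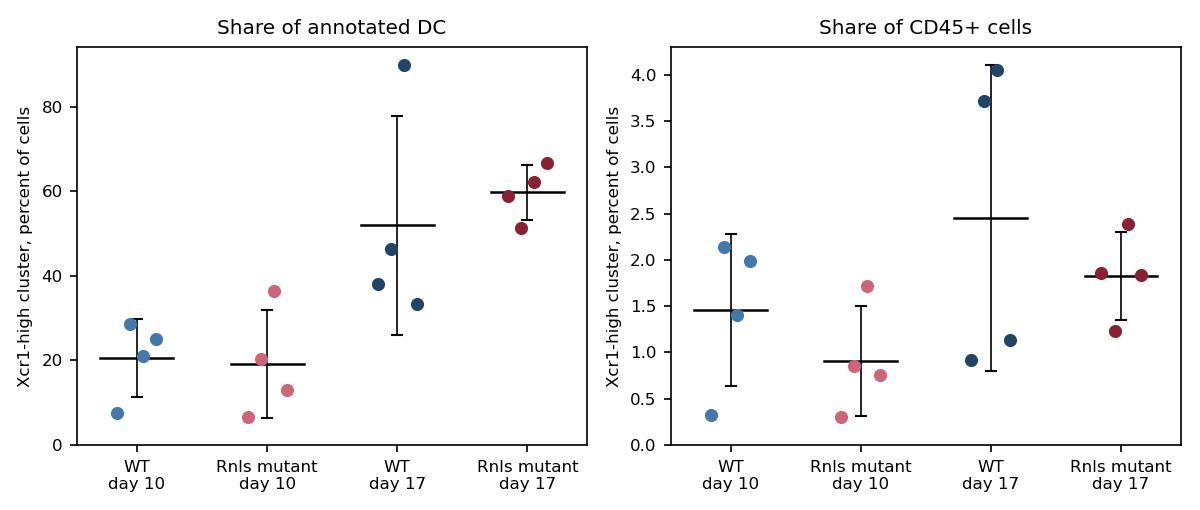
Share of the Xcr1-high cluster among annotated DC (left) and among CD45+ cells (right), in percent. Each point is a graft, the horizontal bar is the mean and the error bar is 1 SD over 4 grafts. Among DC the day 10 grafts lie between 6.67% and 36.4% and the day 17 grafts between 33.3% and 90.0%, while among CD45+ cells the groups overlap.

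No difference between genotypes in the cluster's shares passed the test. Among DC the mutant minus WT difference was -1.48 points at day 10 (exact permutation p = 0.8286) and 7.84 points at day 17 (exact p = 0.6), and among CD45+ cells it was -0.554 points (exact p = 0.343) and -0.622 points (exact p = 0.457), with 0.0286 as the smallest p that 4 against 4 grafts allow. The sign at day 10 among DC depended on single grafts, as it was positive without graft 2 or 4 of WT or without graft 1 or 4 of the mutant (0.0517 to 2.67 points). Because many cDC1 markers also differed between the days, as described next, the DC were grouped anew without 39 genes of the cDC1 and lineage lists and without 1198 genes called between the days. The matching group, taken as the one with the most cells of the cluster, held 338 of the 341 cells and 4 others. Its share of DC rose by 35.95 points (exact permutation p = 0.000408). Since these are nearly the same cells, this repeats the first test and is no independent one.

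For gene levels, the UMIs of the cluster were summed per graft and compared by edgeR's quasi-likelihood test in the 12 grafts with at least 10 cells of the cluster, 6 per day (3 WT and 3 mutant at day 10, 2 WT and 4 mutant at day 17), with 55284 to 766634 UMIs each. Adjusted p-values are Benjamini-Hochberg over all 4659 genes tested, and the threshold was 0.05. As averaged over both genotypes, 1144 genes differed between the days, which is 24.6% of those tested, 592 of them higher at day 17 (12.7%) and 552 lower (11.8%). Without trimmed-mean (TMM) scaling the split was 441 higher and 728 lower, as the median of all genes moved from 0.0080 to -0.095 on the log2 scale. Within genotype, 469 genes (10.1%) differed in WT and 438 (9.4%) in mutant grafts, with 244 higher (5.24%) and 225 lower (4.83%) in WT and 247 higher (5.3%) and 191 lower (4.1%) in mutant grafts. Without TMM scaling 173 and 184 were higher and 292 and 286 lower. Of these, 200 were called in both genotypes and all 200 had the same direction, which is 42.6% of the WT and 45.7% of the mutant genes. In 185 genes (3.97%) every day 17 graft was above every day 10 graft and in 318 (6.83%) every one was below. Cells with a UMI of the proliferation genes Mki67 or Top2a were 40.1% of the cluster at day 10 and 13.6% at day 17, and without them 433 genes differed between the days in the 10 grafts that still had 10 cells, 399 of which were among the 1144.

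**Figure D3:**
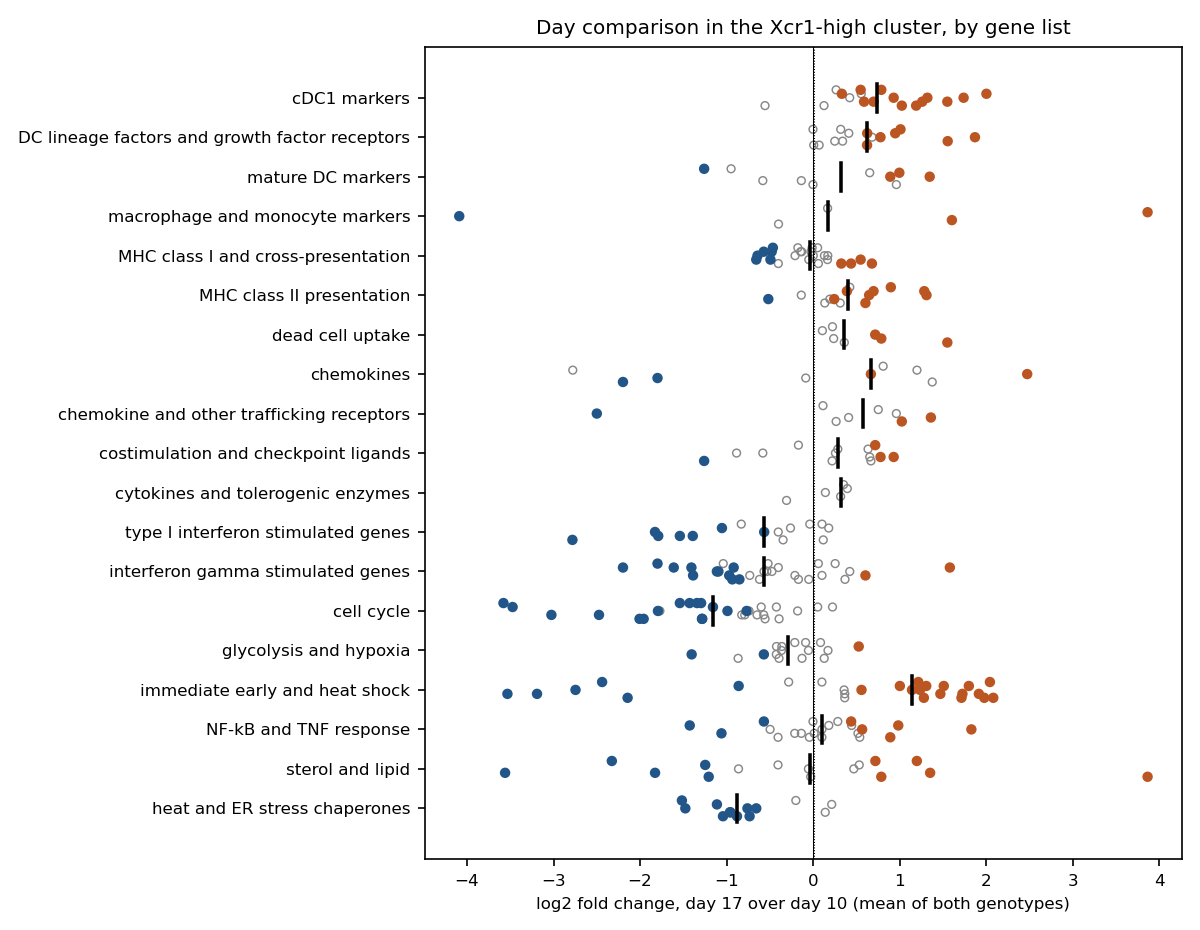
Log2 fold change of day 17 over day 10 (mean of both genotypes) for the tested members of each gene list with at least 5 tested members. Filled circles passed the adjusted p threshold (orange higher, blue lower), open circles did not, the black bar is the median of the list and the dotted line the median of all genes tested. The medians of the chaperone and cell cycle lists lie to the left of 0 and that of the cDC1 list to the right, and the immediate early and heat shock list splits in both directions.

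The cDC1 markers were higher at day 17. Of 20 listed, 18 were tested, 13 were higher, none was lower and 5 did not pass. Thus 72.2% were higher, against 12.7% higher and 11.8% lower over all genes. The median log2 fold change was 0.74 against 0.0080 over all genes. Their cells had been grouped with these genes in use, and the cluster was chosen by Xcr1. The day was not part of that choice, but a cell low in these genes may have been placed in another cluster. How far this enters the changes with the day was not tested. Xcr1 ranged from 108 to 202 CPM (median 179) at day 10 and from 184 to 426 CPM (median 339) at day 17 (log2 fold change 1.03, SE 0.19, adjusted p = 0.000567), so that it was 2.04-fold higher. The lowest day 17 graft, WT graft 2, lay within the day 10 range. Clec9a ranged from 79.2 to 156 CPM (median 111) at day 10 and from 253 to 354 CPM (median 309.7) at day 17 (log2 fold change 1.55, SE 0.18, adjusted p = 3.09e-06), without overlap of the days. By genotype, Clec9a was 156, 92.6 and 123 CPM in WT and 105, 118 and 79.2 CPM in mutant grafts at day 10, and 317 and 343 CPM in WT and 354, 302, 259 and 253 CPM in mutant grafts at day 17.

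Cadm1, an adhesion molecule that binds CRTAM on activated T and NK cells, had no overlap of the days either. It was 179, 158 and 279.5 CPM in WT and 111, 233 and 144 CPM in mutant grafts at day 10, against 657 and 416 CPM and 805, 699, 397 and 814 CPM at day 17 (log2 fold change 1.74, SE 0.22, adjusted p = 1.13e-05). Tlr3 was 4.01-fold higher, from a median of 31.6 to 127 CPM (log2 fold change 2.00, SE 0.30, adjusted p = 5.4e-05), also with no overlap. The adaptor gene Clnk (log2 fold change 1.32, SE 0.29, adjusted p = 0.00229), the vesicle traffic gene Rab7b (log2 fold change 0.70, SE 0.16, adjusted p = 0.00269) and Wdfy4 (log2 fold change 0.55, SE 0.13, adjusted p = 0.00338) rose as well, as did the lipid and dead cell scavenger receptor Cd36 (log2 fold change 0.79, SE 0.17, adjusted p = 0.00234). Btla, an inhibitory receptor, Plpp1 and Cd207 rose with log2 fold changes of 0.93, 1.19 and 1.26 (adjusted p = 0.000686, 0.00543 and 0.00988), but these calls were lost without graft 3 of WT day 17, where the values were 0.57, 0.82 and 1.15. Without that graft 8 of 19 tested markers passed, and without the cells with a Mki67 or Top2a UMI 8 of 18 passed, with a median of 0.79. Naaa and Ly75 were just past the threshold (0.33 and 0.59, adjusted p = 0.045 and 0.0318) and lost it when any of several single grafts was left out (range 0.15 to 0.41 and 0.44 to 0.67). The members that did not pass were Itgae (log2 fold change 0.27, SE 0.22, adjusted p = 0.416), Cd8a (-0.56), Cd24a (0.42), Ppt1 (0.13) and Gcsam (0.56).

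The higher marker levels were also seen at equal depth per cell. With each cell thinned to 3000 UMIs (7 shallower cells left out), the mean share of cells with an Xcr1 UMI over grafts rose from 37.5% to 57.1% (exact permutation p = 0.00286, the smallest possible, adjusted over 7 shares 0.00667). Clec9a rose from 29.8% to 60.2% (the same p-values) and Cadm1 from 36.6% to 71.3% (exact p = 0.00571, adjusted 0.008). Unthinned, 70.9% of day 10 cells and 86.4% of day 17 cells had an Xcr1 UMI, and 65.7% and 89.9% a Clec9a UMI.

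**Figure D4:**
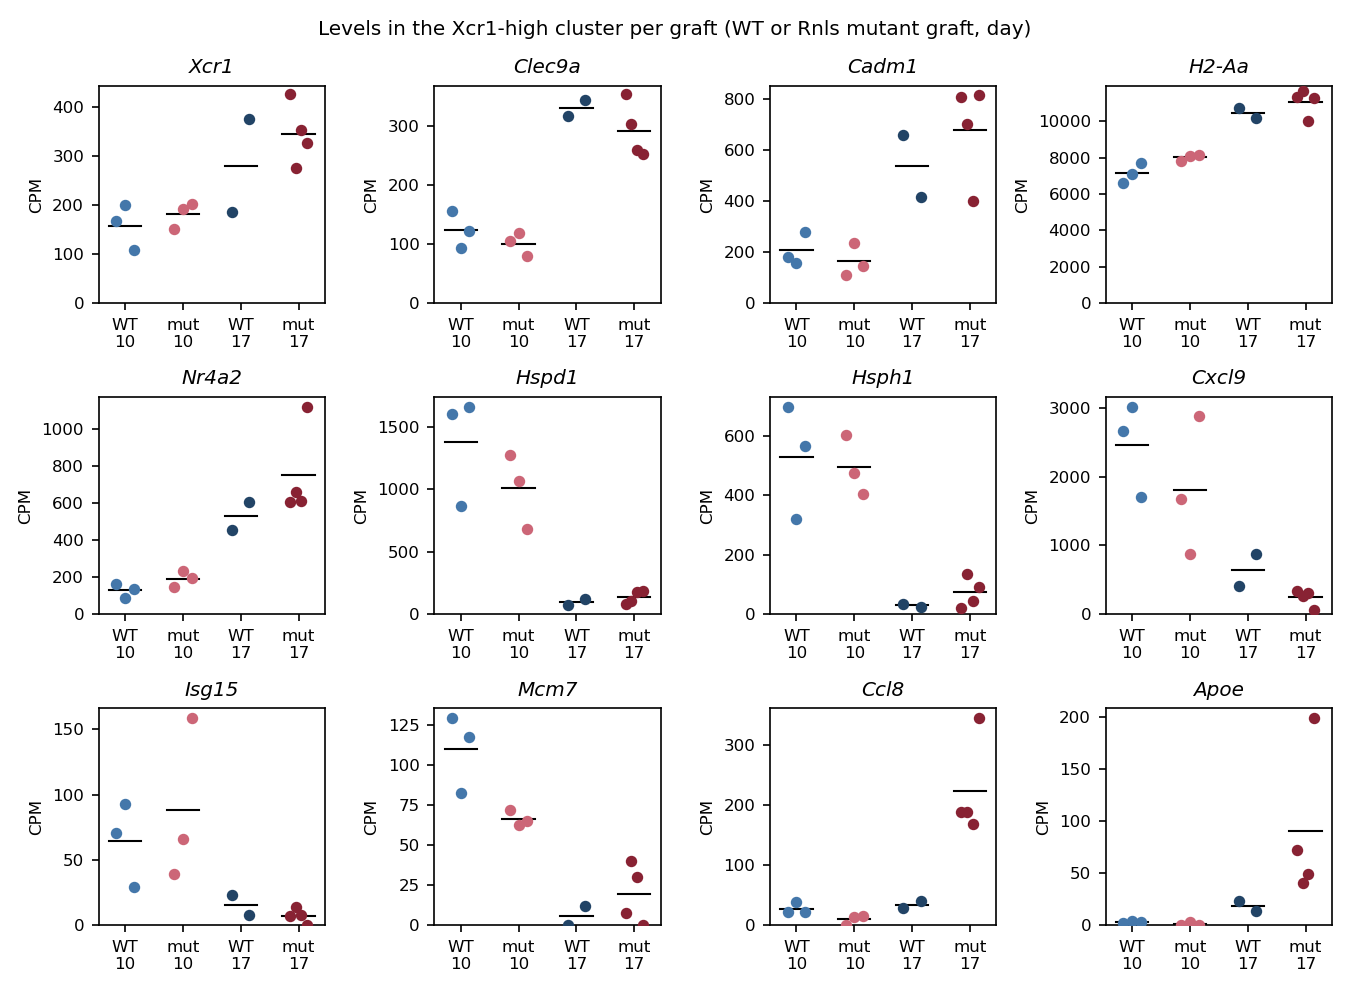
CPM of 12 genes in the Xcr1-high cluster, 1 point per graft with at least 10 cells of the cluster and a bar at the group mean. Clec9a, Cadm1, H2-Aa and Nr4a2 lie higher in all 6 day 17 grafts than in all 6 day 10 grafts, Hspd1, Hsph1, Isg15 and Mcm7 lie lower, and Ccl8 is above 100 CPM only in the 4 Rnls mutant day 17 grafts.

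Among factors that set DC identity and survival, 15 of 19 were tested, 7 were higher at day 17 and none lower (median log2 fold change 0.62), with 4 higher when cells with a Mki67 or Top2a UMI were left out. With all cells 46.7% were higher, against 12.7% of all genes. Klf4, a transcription factor of the myeloid lineage, rose 3.66-fold, from a median of 69.5 to 240.1 CPM with no overlap (log2 fold change 1.87, SE 0.30, adjusted p = 0.000126). Flt3, the receptor for FLT3 ligand, rose 2.01-fold from 72.5 to 132 CPM (log2 fold change 1.01, SE 0.22, adjusted p = 0.00181), and Id2, a helix-loop-helix factor required for cDC1, rose 1.72-fold (log2 fold change 0.78, SE 0.15, adjusted p = 0.000791). Dpp4, the surface peptidase CD26, rose as well (log2 fold change 0.95, SE 0.23, adjusted p = 0.005). Bcl6, a repressor that cDC1 depend on, was higher by 1.56 (adjusted p = 0.000977), and without graft 3 of WT day 17 by 0.89, which did not pass. Irf8 and Batf3, the transcription factors named above for the development of cDC1, did not pass. Irf8 had a median of 1468 CPM at day 10 and 1621 CPM at day 17 (log2 fold change 0.07, SE 0.13, adjusted p = 0.751), and Batf3 106 and 133 CPM (log2 fold change 0.34, SE 0.22, adjusted p = 0.283). Zbtb46, which marks conventional DC, did not pass either (log2 fold change 0.32, SE 0.24, adjusted p = 0.352).

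Most genes of the MHC class II list were higher at day 17, and genes of the class I list were higher or lower. Of 14 tested MHC class II genes, 8 were higher and 1 was lower at day 17 (median 0.41), and 4 were higher without the cells with a Mki67 or Top2a UMI. With all cells 57.1% were higher and 7.14% lower, against 12.7% and 11.8% of all genes. H2-Aa, the alpha chain of I-A, was 6622, 7109 and 7701 CPM in WT and 7803, 8070.0 and 8167 CPM in mutant grafts at day 10 and 10756 and 10194 CPM and 11316, 11693, 9999 and 11305 CPM at day 17. All day 17 grafts were above all day 10 grafts, at 1.52-fold in the mean (log2 fold change 0.60, SE 0.08, adjusted p = 1.7e-05). H2-Eb1 (log2 fold change 0.65, SE 0.083, adjusted p = 1.24e-05) and the invariant chain Cd74 (log2 fold change 0.39, SE 0.073, adjusted p = 0.000529) rose likewise. H2-Oa, which encodes a chain of the peptide loading inhibitor H2-O, rose 2.44-fold (log2 fold change 1.29, SE 0.23, adjusted p = 0.000311), and so did March1, a ubiquitin ligase that removes MHC class II from the surface, at 2.48-fold (log2 fold change 1.31, SE 0.23, adjusted p = 0.000379). Of 24 class I and cross-presentation genes, 4 were higher and 6 lower (median -0.037), or 16.7% and 25% against 12.7% and 11.8% of all genes. Fewer of them passed without the cells with a Mki67 or Top2a UMI, as was so over all genes. The light chain B2m was higher (log2 fold change 0.44, SE 0.11, adjusted p = 0.00598), a call lost without graft 3 of WT day 17 (0.30), and so was the vesicle gene Rab43 (log2 fold change 0.68, SE 0.16, adjusted p = 0.00447). The immunoproteasome subunit Psmb8 (log2 fold change -0.46, SE 0.11, adjusted p = 0.00451), the proteasome activator Psme2 (log2 fold change -0.57, SE 0.14, adjusted p = 0.00662) and the loading chaperones Calr (log2 fold change -0.66, SE 0.14, adjusted p = 0.0022) and Pdia3 (log2 fold change -0.64, SE 0.13, adjusted p = 0.00101) fell.

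Chaperones of the heat shock and endoplasmic reticulum (ER) stress responses fell. Of 13 tested genes of the ER list, 10 were lower at day 17 and none higher (median -0.88), or 76.9% lower against 11.8% of all genes. In 9 of the 13 (69.2%) every day 17 graft was below every day 10 graft, against 6.83% of all genes. Creld2 (log2 fold change -1.52, SE 0.20, adjusted p = 2.05e-05), Pdia4 (log2 fold change -1.48, SE 0.27, adjusted p = 0.00039) and Hsp90b1 (log2 fold change -0.96, SE 0.13, adjusted p = 1.52e-05), which assist folding in the ER, were among them, with the ER chaperone Hspa5 (log2 fold change -0.88, SE 0.17, adjusted p = 0.000608). Cytosolic and mitochondrial chaperones fell too. Hspd1, the mitochondrial chaperonin, was 1604, 861 and 1657 CPM in WT and 1275, 1061 and 684 CPM in mutant grafts at day 10, and 69.2 and 120.0 CPM and 83.0, 101, 172 and 181 CPM at day 17 (log2 fold change -3.27, SE 0.23, adjusted p = 8.48e-09). The highest day 17 graft was thus far below the lowest day 10 graft. Hsph1 ranged from 319 to 696 CPM (median 519) at day 10 and from 21.7 to 134 CPM (median 39.8) at day 17 (log2 fold change -3.53, SE 0.31, adjusted p = 1.32e-07), again without overlap. Log2 fold changes were -3.19 for Hspa1a, -2.75 for its near-identical neighbour Hspa1b, whose reads may be shared between them, -2.54 for Dnaja1, -2.44 for Hsp90aa1, -1.94 for Hspe1 and -1.20 for Hsp90ab1 (adjusted p from 7.44e-08 to 1.05e-05).

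Hspd1 was also compared with other cells of the same libraries. Hspd1 in WT day 10, Rnls mutant day 10, WT day 17 and Rnls mutant day 17 was 1412, 1035, 125 and 126 CPM in the cluster, 702, 648, 98.9 and 116 CPM in the other DC, 673, 751, 119 and 89.6 CPM in macrophages and 940.1, 935, 153 and 122 CPM in CD4 T cells. These are sums per library and carry no replicate error. Hspd1 was thus lower in the day 17 libraries in each of these cell types, and library and day cannot be told apart.

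Promoters of the genes that fell together are shown, from 250 bases before to 50 bases after the gene start, as RefSeq gives them on GRCm38.p6 and read in the direction of the gene. Capitals mark the letters GAANNTTC, a heat shock element core that reads the same on both strands, in the chaperone promoters, and GAAA, any 2 bases and GAAA (on the other strand TTTC, any 2 bases and TTTC), an interferon response element core, in those of the interferon genes described further on. The window of Hspe1 is chr1:55087898-55088197 (plus strand), beside the start of Hspd1, which is read in the opposite direction. That of Hsph1, for which RefSeq lists 2 windows, is chr5:149636287-149636586, minus strand, that of Hspa1a chr17:34972107-34972406, minus strand, that of Isg15 chr4:156200769-156201068, minus strand, and that of Cxcl10 chr5:92348840-92349139, minus strand.
Hspe1: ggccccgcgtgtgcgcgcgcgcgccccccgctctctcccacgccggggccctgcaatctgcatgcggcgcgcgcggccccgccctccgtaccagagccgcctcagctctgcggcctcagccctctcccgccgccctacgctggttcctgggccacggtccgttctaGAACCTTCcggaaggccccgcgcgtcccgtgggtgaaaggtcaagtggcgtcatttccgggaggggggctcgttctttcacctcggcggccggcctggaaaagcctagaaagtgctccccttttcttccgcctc
Hsph1: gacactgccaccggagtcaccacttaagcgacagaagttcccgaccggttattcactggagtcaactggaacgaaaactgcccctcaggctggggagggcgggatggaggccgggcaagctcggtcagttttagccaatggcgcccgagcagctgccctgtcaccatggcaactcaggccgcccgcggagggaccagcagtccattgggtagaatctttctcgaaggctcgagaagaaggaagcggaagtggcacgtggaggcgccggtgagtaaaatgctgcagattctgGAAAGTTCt
Hspa1a: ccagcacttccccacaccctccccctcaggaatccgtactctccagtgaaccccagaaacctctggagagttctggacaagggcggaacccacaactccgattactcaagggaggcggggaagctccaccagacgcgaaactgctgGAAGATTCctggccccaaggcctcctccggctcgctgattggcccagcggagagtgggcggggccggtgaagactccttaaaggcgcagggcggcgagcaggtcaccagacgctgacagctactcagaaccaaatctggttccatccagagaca
Isg15: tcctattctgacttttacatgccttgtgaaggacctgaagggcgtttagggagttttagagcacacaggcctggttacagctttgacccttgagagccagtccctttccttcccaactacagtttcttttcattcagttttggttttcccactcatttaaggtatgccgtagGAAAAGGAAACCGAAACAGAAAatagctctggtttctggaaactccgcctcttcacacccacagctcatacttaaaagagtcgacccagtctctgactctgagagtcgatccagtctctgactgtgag
Cxcl10: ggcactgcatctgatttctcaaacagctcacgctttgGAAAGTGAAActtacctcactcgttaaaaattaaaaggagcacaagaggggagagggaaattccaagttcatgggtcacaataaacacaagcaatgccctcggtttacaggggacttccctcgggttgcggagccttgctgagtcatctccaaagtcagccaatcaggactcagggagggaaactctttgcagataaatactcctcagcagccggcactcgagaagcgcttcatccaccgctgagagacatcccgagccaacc
GAANNTTC was found in 7.86% of 32851 promoters of this length, and in 6 of the 8 matched among 11 named heat shock genes (Dnaja1, Hspa1a, Hspa1b, Hspd1, Hspe1 and Hsph1). The interferon response element core was found in 3.44% of promoters, and in 6 of the 13 matched among 18 interferon genes that fell, Isg15 with 3 overlapping matches among them. The genes were chosen by their change, so these counts describe letters in a window and were not tested.

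Immediate early genes, which are switched on within minutes of a signal, went the other way. The list held 27 tested genes, of which 16 were higher and 6 lower at day 17 (median 1.14), and all 6 that were lower were its heat shock members. The shares were 59.3% and 22.2%, against 12.7% and 11.8% of all genes. Nr4a2, an orphan nuclear receptor, was 160.4, 89.2 and 137 CPM in WT and 144, 233 and 194 CPM in mutant grafts at day 10, against 455 and 604 CPM and 607, 659, 611 and 1121 CPM at day 17 (log2 fold change 2.04, SE 0.19, adjusted p = 2e-07). The days did not overlap, and the same held for its relative Nr4a3 (log2 fold change 1.98, SE 0.23, adjusted p = 5.14e-06) and for Junb, a subunit of the AP-1 transcription factor (log2 fold change 1.31, SE 0.13, adjusted p = 8.39e-07). Fos (log2 fold change 1.72, SE 0.36, adjusted p = 0.00151), Egr1 (log2 fold change 2.08, SE 0.49, adjusted p = 0.00373) and Egr3 (log2 fold change 1.73, SE 0.27, adjusted p = 9.25e-05) were higher with values that spread widely, Fos from 61.7 to 558 CPM among day 10 grafts alone, and the call of Egr3 was lost without graft 3 of WT day 17 (1.08). In the same 4 library sums, Nr4a2 was 134, 210.1, 535 and 657 CPM in the cluster, 106, 165, 203 and 185 CPM in the other DC, 113, 129.6, 134 and 149 CPM in macrophages and 484, 608, 1181 and 985 CPM in NK cells. Grafts were digested with an enzyme before sorting, and the part of this step in the levels was not tested.

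Interferon-stimulated genes were lower at day 17. Of 15 tested genes of the type I list 7 were lower and none higher (median -0.57), and of 29 tested genes of the interferon gamma list 11 were lower and 2 higher (median -0.57). In shares, 46.7% of the type I list were lower, and 37.9% of the gamma list were lower and 6.90% higher. Over all genes 11.8% were lower and 12.7% higher. By genotype, 1 of 15 and 2 of 29 were lower in WT grafts (medians -0.22 and -0.16), where 4.83% of all genes were, and 6 of 15 and 7 of 29 in mutant grafts (medians -0.88 and -0.93), where 4.1% were. None of these genes passed the test of whether the day change differed between genotypes, with 3 and 5 at an unadjusted p under 0.05. With cells that had a Mki67 or Top2a UMI left out, 8 of 19 and 7 of 29 were lower. Cxcl9, a chemokine that draws CXCR3+ T cells, was 2667, 3011 and 1699 CPM in WT and 1681, 867 and 2888 CPM in mutant grafts at day 10, and 409 and 878 CPM and 332, 269, 307 and 54.3 CPM at day 17 (log2 fold change -2.20, SE 0.27, adjusted p = 7.28e-06). The days met at graft 3 of the mutant at day 10 and graft 3 of WT at day 17. At 3000 UMIs per cell, the mean share of cells with a Cxcl9 UMI fell from 79.3% to 27.8% (exact permutation p = 0.00286). Isg15 ranged from 29.4 to 158 CPM (median 68.3) at day 10 and from 0 to 23.1 CPM (median 7.66) at day 17 (log2 fold change -2.78, SE 0.45, adjusted p = 0.000144), with no overlap. Isg15 encodes a ubiquitin-like modifier, and other genes of its list that fell were Irf7, which amplifies interferon production (log2 fold change -1.83, SE 0.39, adjusted p = 0.00194), Ifi27l2a (log2 fold change -1.79, SE 0.34, adjusted p = 0.000683) and Zbp1, a sensor of nucleic acids (log2 fold change -1.05, SE 0.28, adjusted p = 0.00926).

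Of the genes induced by interferon gamma, the immunity-related GTPases Igtp (log2 fold change -1.39, SE 0.23, adjusted p = 0.000184) and Ifi47 (log2 fold change -1.61, SE 0.29, adjusted p = 0.000448) and the guanylate-binding protein Gbp2 (log2 fold change -0.93, SE 0.25, adjusted p = 0.00887) fell, and so did Cxcl10, another ligand of CXCR3 (log2 fold change -1.80, SE 0.48, adjusted p = 0.00918). Graft 3 of the mutant at day 17 was high for Cxcl10, at 236 CPM among a day 17 median of 16.6 CPM. Slfn2 fell from a median of 516 to 138 CPM (log2 fold change -1.78, SE 0.18, adjusted p = 8.73e-07). Ifngr1, the ligand-binding chain of the interferon gamma receptor, rose 2.99-fold from 77.3 to 228 CPM with no overlap (log2 fold change 1.58, SE 0.26, adjusted p = 0.000167). Without graft 3 of WT day 17, which had the highest Cxcl9 of its day, 17 of 30 tested genes of the interferon gamma list were lower.

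Cell cycle genes were lower at day 17. Of 29 tested, 16 were lower and none higher (median -1.16), against 5 of 26 lower when graft 2 of Rnls mutant day 10 was left out. With all grafts 55.2% were lower, against 11.8% of all genes. By genotype, 14 of 29 were lower in WT (median -1.54) and 2 of 29 in mutant grafts (median -0.63), and 0 passed the test of a genotype difference in the day change, with 6 at an unadjusted p under 0.05. The shares were 48.3% in WT, against 4.83% of all genes, and 6.90% in mutant grafts, against 4.1%. The replication helicase subunits Mcm3 (log2 fold change -1.79, SE 0.33, adjusted p = 0.000469), Mcm6 (log2 fold change -1.96, SE 0.37, adjusted p = 0.000664) and Mcm7 (log2 fold change -2.47, SE 0.37, adjusted p = 5.59e-05) fell, as did Cdc6, which loads them (log2 fold change -3.58, SE 0.70, adjusted p = 0.000798). Mcm7 was at 62.4 to 129 CPM at day 10 and at 0 to 40.3 CPM at day 17, with no overlap. The mitotic genes Top2a (log2 fold change -0.79, SE 0.34, adjusted p = 0.092) and Mki67 (log2 fold change -0.39, SE 0.45, adjusted p = 0.577) did not pass. Their log2 values were -1.79 and -1.30 in WT and 0.21 and 0.52 in mutant grafts, with adjusted p = 0.705 and 0.906 for the difference between genotypes. At 3000 UMIs per cell the mean share of cells with a Mki67 or Top2a UMI was 22.1% at day 10 and 10.7% at day 17 (exact permutation p = 0.0457, adjusted over 7 shares 0.0533).

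Metabolic lists were split. Of 16 tested sterol and lipid genes, 5 were lower and 5 higher (median -0.041), or 31.25% each against 11.8% lower and 12.7% higher over all genes. Hmgcs1, an early enzyme of cholesterol synthesis, was at 13.1 to 50.4 CPM at day 10 and at most at 6.72 CPM at day 17 (log2 fold change -3.56, SE 0.61, adjusted p = 0.000272), and Idi1 (log2 fold change -2.33, SE 0.56, adjusted p = 0.00469) and Fdps (log2 fold change -1.21, SE 0.37, adjusted p = 0.0218) of the same pathway fell too. The call of Fdps (-2.03 in WT and -0.38 in mutant grafts) was lost without graft 3 of WT day 10, graft 2 or 4 of Rnls mutant day 10 or graft 3 of WT day 17 (range over grafts -1.44 to -0.98). Lpl, lipoprotein lipase, rose (log2 fold change 1.35, SE 0.37, adjusted p = 0.0102), a call lost without graft 3 of WT day 17 (1.11) or graft 1 of Rnls mutant day 17 (0.95). Of 16 glycolysis and hypoxia genes, 2 were lower and 1 higher (median -0.29), against 9 of 18 lower when graft 3 of WT day 17 was left out. With all grafts, 12.5% of this list were lower and 6.25% higher, against 11.8% and 12.7% of all genes. The median was 0.26 in WT, with 13 of 16 above 0, 1 higher and 1 lower, and -0.87 in mutant grafts, with 15 of 16 below 0 and 5 lower. For this list 0 genes passed edgeR's test of a genotype difference in the day change, with 8 at an unadjusted p under 0.05. Hk2, which traps glucose in the cell, fell from a median of 188 to 69.6 CPM (log2 fold change -1.40, SE 0.23, adjusted p = 0.000184).

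Lists of genes for contact with T cells and for migration held few called genes. Of 13 tested costimulation and checkpoint ligands 3 were higher and 1 lower (median 0.29), or 23.1% and 7.69% against 12.7% and 11.8% of all genes. Cd86, a ligand of CD28 and CTLA-4, rose 1.72-fold from 269 to 457 CPM with no overlap (log2 fold change 0.78, SE 0.14, adjusted p = 0.000346), Havcr2, which encodes TIM-3, rose 1.65-fold (log2 fold change 0.72, SE 0.16, adjusted p = 0.00285), and Pdcd1lg2, which encodes PD-L2, fell (log2 fold change -1.26, SE 0.36, adjusted p = 0.0145). Its log2 value was 0.024 in WT and -2.54 in mutant grafts (adjusted p = 0.705 for the difference), and it did not pass with at least 20 cells per graft (-0.64) or without the cells with a Mki67 or Top2a UMI (-1.16). Of 10 tested markers of mature DC, 3 were higher and 1 lower (30% and 10%, median 0.33), with Cd83 (log2 fold change 0.89, SE 0.14, adjusted p = 0.000113) and Marcksl1 (log2 fold change 1.35, SE 0.25, adjusted p = 0.000469) higher. The migration receptor Ccr7 (log2 fold change 0.96, SE 0.50, adjusted p = 0.168) and Cd40 (log2 fold change -0.58, SE 0.40, adjusted p = 0.307) did not pass. Of 8 tested trafficking receptors 2 were higher, Xcr1 and the integrin subunit Itga4 (log2 fold change 1.36, SE 0.23, adjusted p = 0.000243), and 1 was lower. Of 7 tested genes of dead cell uptake 3 were higher and none lower (Clec9a, Cd36 and Havcr2), of 22 NF-kB and TNF response genes 5 were higher, among them Tnfaip3 (log2 fold change 1.83, SE 0.44, adjusted p = 0.00474), and 3 lower, among them Nfkbie (log2 fold change -1.06, SE 0.18, adjusted p = 0.000209). The NF-kB shares were 22.7% and 13.6%, and the median was 0.33 in WT and -0.15 in mutant grafts. The share of higher genes was 42.9% for dead cell uptake. For trafficking receptors the shares higher and lower were 25% and 12.5%, and for chemokines 22.2% each. Of 5 tested cytokine genes 0 passed edgeR's test, with 0 at an unadjusted p under 0.05 (median 0.32), and of 9 tested chemokines 2 were higher, Cxcl16 (log2 fold change 0.67, SE 0.24, adjusted p = 0.0487) and Ccl8, and 2 lower, Cxcl9 and Cxcl10. The call of Cxcl16 was lost without TMM scaling, by DESeq2 and without any single graft except graft 4 of Rnls mutant day 10 (range over grafts 0.41 to 1.07).

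Genes outside the lists with the smallest p among those higher at day 17 included Hepacam2, at 13.7 to 35.4 CPM at day 10 and 86.5 to 176 CPM at day 17 (log2 fold change 2.73, SE 0.26, adjusted p = 2.32e-07), a gene that was also among the 20 with the largest ratio over the other DC. The phosphodiesterase Pde4b rose 3.29-fold (log2 fold change 1.72, SE 0.17, adjusted p = 4.88e-07) and Gm2a, an activator of lysosomal ganglioside breakdown, 2.36-fold (log2 fold change 1.24, SE 0.15, adjusted p = 7.28e-06), both with no overlap of the days. Ccser1, another gene of high ratio, rose as well (log2 fold change 1.87, SE 0.23, adjusted p = 7.28e-06).

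Some macrophage genes were higher at day 17. Of 5 tested macrophage and monocyte markers 2 were higher and 1 lower, or 40% and 20% against 12.7% and 11.8% of all genes. Lyz2, lysozyme, ranged from 85.7 to 517 CPM at day 10 and from 536 to 1357 CPM at day 17 (log2 fold change 1.60, SE 0.30, adjusted p = 0.00053). Apoe was at most 3.43 CPM at day 10 and 13.0 to 199 CPM at day 17 (log2 fold change 3.87, SE 0.68, adjusted p = 0.000306). In the 4 library sums (WT day 10, Rnls mutant day 10, WT day 17 and Rnls mutant day 17) Apoe was 2.41, 1.58, 16.2 and 66.9 CPM in the cluster, 9.60, 2.73, 45.7 and 179 CPM in CD4 T cells and 1085, 656, 2849 and 4712 CPM in macrophages. Its level in T cells, which should lack it, was above that of the cluster in each library, and the part of RNA from other cells in the cluster's Apoe was not tested. Lyz2 was 265, 261, 624 and 909 CPM in the cluster and 136, 67.1, 188 and 599.5 CPM in CD4 T cells, and the part of RNA from other cells in its change was not tested.

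**Figure D5:**
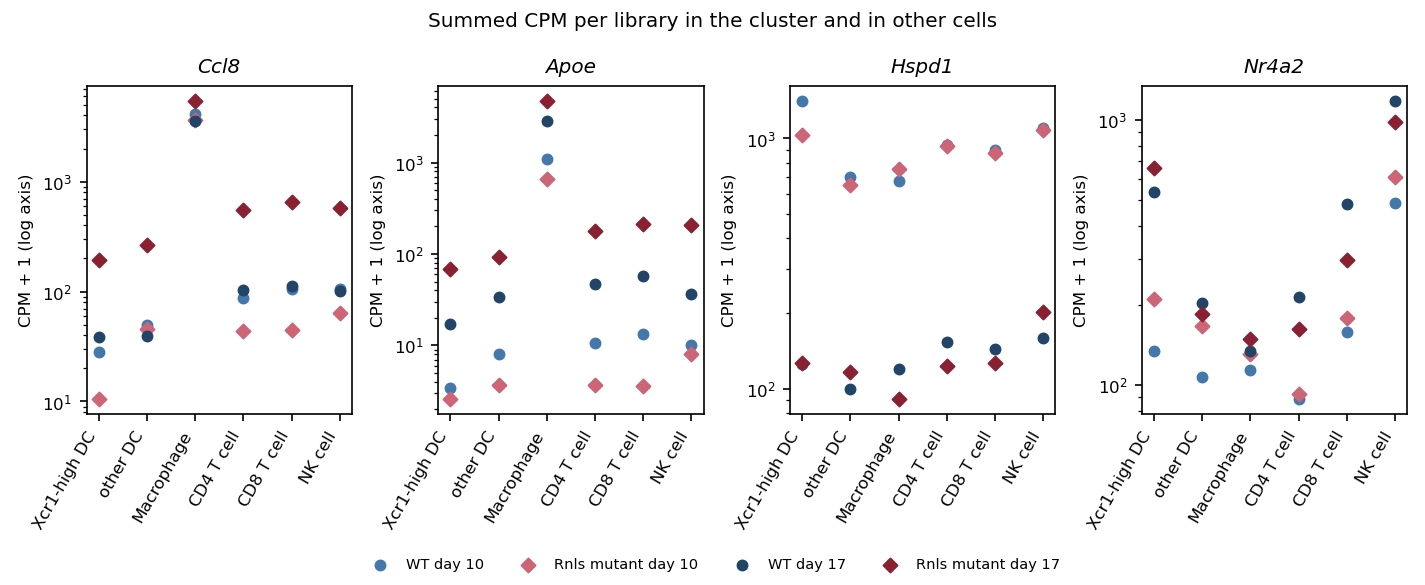
Summed level of 4 genes per library in the Xcr1-high cluster and in other cell types, as CPM + 1 on a log axis. Ccl8 and Apoe in the cluster lie below the level in T and NK cells and are highest in macrophages, Hspd1 is lower at day 17 in every cell type shown, and Nr4a2 in the cluster is more than 500 CPM in both day 17 libraries.

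With at least 10 cells both of the cluster and of the other DC, 10 grafts could be used. A single graft of WT day 17 was among them (graft 2, 13 cells of the cluster), which gives that group no spread of its own. In these grafts the day change was then compared with that of the other DC, pooled per graft. It differed in 67 of 6426 genes (1.04%), with 54 higher (0.84%) and 13 lower (0.202%) in the cluster, or 29 and 26 without TMM scaling. Clec9a rose by 1.91 more on the log2 scale than in the other DC (SE 0.42, adjusted p = 0.0143), and Naaa by 1.44 (SE 0.28, adjusted p = 0.00609), whereas Cadm1 (-0.24, adjusted p = 0.849) and Xcr1, of which the other DC held 11 UMIs in all (-1.64, SE 1.09, adjusted p = 0.593), did not pass. Over the 19 cDC1 markers tested here the signs of this difference were split, with 10 above 0 and 9 below (median 0.63). The difference with the smallest p was that of Ahr, the aryl hydrocarbon receptor, which in the cluster was 95.9, 141 and 125 CPM in WT and 131, 98.6 and 180.1 CPM in mutant grafts at day 10 and 449.6 and 269 CPM and 274, 309, 274 and 217 CPM at day 17. The change of Ahr exceeded that of the other DC by 3.24 (SE 0.40, adjusted p = 1.22e-05). Ifngr1 (2.42, adjusted p = 0.000276), the kinase gene Dapk1 (2.62, adjusted p = 0.000409), Nr4a3 (1.41, adjusted p = 0.00117) and Nr4a2 (1.34, adjusted p = 0.00634) also rose more in the cluster. So did the transcription factor Runx3 (1.52, adjusted p = 0.00695), Havcr2 (1.76), Pfkp (1.66) and Pde4b (1.16, adjusted p = 0.00929).

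Changes with the day were lower in the cluster than in the other DC for the tetherin gene Bst2 (-1.11, adjusted p = 0.0222), the glutamate receptor gene Grm8 (-2.26, adjusted p = 0.013) and the protease inhibitor Cst3 (-0.78, adjusted p = 0.00695). The last had the opposite sign (0.42) against cluster 17 alone, and Ifngr1, Havcr2, Nfil3, Marcksl1 and Bst2 did not pass against it. That comparison could be fitted only with a minimum of 5 cells, in another set of grafts, and no day 17 graft held more than 8 cells of cluster 17. The call of Bst2 was lost without graft 1 of Rnls mutant day 17 (-1.06) and without graft 3 of WT day 10 (-0.92). The test of the difference was not passed by Hspd1 (-0.79, SE 0.33, adjusted p = 0.312), Cxcl9 (0.35, SE 0.24, adjusted p = 0.601) or H2-Aa (0.41, SE 0.13, adjusted p = 0.128). Of 33 tested interferon gamma genes 2 passed, Ifngr1 and Iigp1, the latter named after its value was seen. The other DC changed in makeup between the days as given above, and how far this enters the 67 genes was not tested.

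Between WT and Rnls mutant grafts few genes of the cluster differed. At day 10, 1 of 4659 genes passed (0.0215%), at day 17 another 1 (0.0215%), and in the mean of both days 0 by edgeR's quasi-likelihood test, with 275 at an unadjusted p under 0.05 and 0 by DESeq2. No gene passed the test of whether the genotype difference differed between the days (0 genes by edgeR, 260 at an unadjusted p under 0.05, 2 by DESeq2). Xcr1 was 167, 199 and 108 CPM in WT and 150.4, 191 and 202 CPM in mutant grafts at day 10 (log2 fold change of mutant over WT 0.18, SE 0.28, adjusted p = 0.951), and 184 and 374 against 426, 276, 352 and 326 CPM at day 17 (0.22, SE 0.27, adjusted p = 0.972). Clec9a gave -0.31 (SE 0.27) and -0.19 (SE 0.23), with adjusted p = 0.891 and 0.972. These counts moved with the settings, since at day 17 22 genes passed without graft 2 of WT day 17 and 23 with at least 20 cells per graft, and in the mean of both days 8 passed without graft 3 of WT day 17.

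The gene that passed at day 17 was Ccl8, a chemokine of tissue macrophages (chr11:82115185-82116799, plus strand). It was 28.8 and 39.1 CPM in the 2 WT grafts and 188, 188, 169 and 344 CPM in the 4 mutant grafts (log2 fold change 2.44, SE 0.37, adjusted p = 0.00586), and 20.8, 37.7 and 22.1 against 0, 13.1 and 14.4 CPM at day 10. The call was lost without graft 3 of WT day 17 (2.70, adjusted p = 0.0882) and with the hashtag number as replicate block (adjusted p = 0.0525), where adjusted p otherwise ranged from 9.74e-07 to 0.0270. In CD4 T cells, which should lack it, the 4 library sums were 86.6, 42.5, 103 and 549.7 CPM, with the same rise in the mutant day 17 library, and in macrophages 4106, 3668, 3588 and 5426 CPM. The cluster's own sums, 27.3, 9.48, 37.7 and 193 CPM, lay below those of the T cells in each library, and the part of RNA from other cells in the cluster's Ccl8 was not tested. The genotype difference of Ccl8 did not pass the test of a difference between the days (3.80, adjusted p = 0.0529).

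The gene that passed at day 10 was Gm10076, a predicted noncoding gene that the rule for named genes would have left out and that was named after its value was seen. It was 658, 641 and 716 CPM in WT and 327, 348 and 281 CPM in mutant grafts (log2 fold change -1.10, SE 0.19, adjusted p = 0.0312). The call was lost with the hashtag number as replicate block (adjusted p = 0.118), with at least 20 cells per graft and without the cells with a Mki67 or Top2a UMI. It was also lost when any day 10 graft or graft 1 of Rnls mutant day 17 was left out (log2 values from -1.27 to -1.01 over all 12 grafts). CD4 T cells showed the same order of libraries, with 740.5, 417, 226 and 322 CPM in WT day 10, Rnls mutant day 10, WT day 17 and Rnls mutant day 17, and the part of RNA from other cells in the difference was not tested.

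The next genes by p did not pass. At day 10 these were Pdlim5 (0.93, SE 0.25, adjusted p = 0.664), Itgae (1.11, SE 0.31, adjusted p = 0.664) and Pfkp (0.85, SE 0.25, adjusted p = 0.664) on the side of higher values in mutant grafts, and Lmo4 (-0.99, SE 0.21, adjusted p = 0.204), Fcgr1 (-3.06, SE 0.71, adjusted p = 0.476) and Cmss1 (-1.43, SE 0.36, adjusted p = 0.664) on the other. Itgae was 113, 123 and 90.7 CPM in WT and 222, 239.9 and 259 CPM in mutant grafts. These grafts did not overlap, but Itgae was picked by its p and the test across all genes was not passed. How many of all genes had no overlap between these few grafts was not counted. At day 17 they were Ahnak (1.03, SE 0.22, adjusted p = 0.127) and Man1a (1.23, SE 0.33, adjusted p = 0.398) with positive, and Ftl1 (-0.85, SE 0.17, adjusted p = 0.106), Serpinb1a (-5.28, SE 1.08, adjusted p = 0.106) and Cd36 (-0.97, SE 0.24, adjusted p = 0.333) with negative values. Serpinb1a had its UMIs chiefly in graft 3 of WT day 17 (103 CPM, with 0 in graft 2 and at most 6.72 in mutant grafts). As medians of lists, at day 17 the 29 interferon gamma genes had -0.61 (25 below 0) and the 16 glycolysis and hypoxia genes -0.68 (14 below 0) for mutant over WT, against -0.010 over all genes, and no member of either passed. At day 10 the glycolysis genes had 0.30 (14 of 16 above 0). These medians carry no test, and the 2 WT grafts of day 17 held 13 and 45 cells of the cluster.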

How the data were processed

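The authors sequenced 4 libraries of sorted CD45+ cells (super-loaded 10x Genomics 3' chemistry with hashtag antibodies), and the deposited table holds raw UMI counts per gene and cell, with the authors' library, graft, cluster and cell type for each cell. Their notes name Cell Ranger and mm10. Hashtag assignment, filters on cells and removal of doublets are not given in the sources used here, every deposited cell had at least 1001 UMIs, and no doublet caller was run. Separate hashtag libraries of the same samples were not analysed here. The deposited labels of cells were used as they stand, and the cluster was chosen by its Xcr1 CPM.

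Counts of the cluster were summed per graft, and grafts with at least 10 cells were fitted with edgeR 4.0.16 (R 4.3.3, glmQLFit and glmQLFTest, TMM scaling, filterByExpr, 1 mean per genotype and day), with Benjamini-Hochberg adjusted p under 0.05 as the threshold. The day change against the other DC was an interaction in a fit over sums of the cluster and of the other DC per graft, with the graft as a term. DESeq2 1.42.0 was an alternative. Shares were compared by two-sided exact permutation tests (Python 3.11.15, scipy 1.17.1), and p-values over grafts measure the spread between grafts of 1 library each. Grafts of a group differed beyond the sampling noise of UMIs (chi-square per degree of freedom 1.52 to 4.57). Sums over different cells of the same graft could differ in this way too, so these values cannot tell whether any were duplicates. None was counted as a duplicate. A limit for a count of 0 is 3 UMIs, and intervals are exact at 95%. The edgeR fit per graft was also run on counts simulated from the means and spread of these data, for the contrasts of day and of genotype. The share tests and the comparison with the other DC were not simulated.

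The members and the 25 gene lists were chosen with earlier results of these data known. Genes were named by rule: the cDC1 and lineage lists, up to 10 genes per direction and contrast with the smallest p, up to 4 of each list and the 20 with the largest ratio at 50 CPM or more, leaving predicted genes unnamed. Alternatives were no TMM scaling, no filter on low counts, a minimum of 5 or 20 cells, the hashtag number as a replicate block, DESeq2, leaving out each graft, and leaving out cells with a lymphocyte UMI. Chosen after seeing the data were leaving out cells with a Mki67 or Top2a UMI, leaving out cells above 19777 UMIs (the 95th percentile), grouping the DC anew, and comparing with the largest other DC cluster alone at a minimum of 5 cells. 1 gene that the rule names is not reported here.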

Additional observations from a re-analysis of the deposited data

Results flagged for a closer look

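Among 117 sets of graft values, 8 had a graft far from the others by Dixon's criterion, where chance gives about 1 in 20. All were in Rnls mutant day 17, the one group with 4 grafts in the gene tests, and in each the highest graft stood apart. Graft 4 was high for Dpp4 (199 CPM), Nr4a2 (1121 CPM), Ccl8 (344 CPM) and Ifi27l2a (362 CPM), and it had 10 cells of the cluster, the fewest of its group. Graft 3 was high for Cxcl10 (236 CPM), Cdc6 (11.2 CPM) and Fcgr1 (7.50 CPM). Graft 1 was high for Dapk1 (184 CPM).

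The change from day 10 to day 17 differed between the cluster and the other DC for 67 genes by the test of the difference itself. Of the named genes, the cluster's log2 change exceeded that of the other DC for Ahr (3.24), Dapk1 (2.62), Ifngr1 (2.42), Clec9a (1.91), Havcr2 (1.76), Pfkp (1.66), Runx3 (1.52), Naaa (1.44), Nr4a3 (1.41), Nr4a2 (1.34), Marcksl1 (1.28), Nfil3 (1.27), Pde4b (1.16) and Junb (0.70). It was lower for Mcm7 (-5.58), Grm8 (-2.26), Bst2 (-1.11) and Cst3 (-0.78). Besides Bst2, calls were lost without a single graft for Mcm7 (-4.75 without graft 3 of Rnls mutant day 17), Marcksl1 (1.10 to 1.25 without graft 2 or 4 of WT day 10, graft 2 or 4 of Rnls mutant day 10 or graft 1 of Rnls mutant day 17), Junb (0.63 to 0.75 without graft 2 or 3 of WT day 10, graft 2 or 3 of Rnls mutant day 10 or graft 1 or 2 of Rnls mutant day 17) and Nfil3 (1.04 to 1.35 without graft 2 or 3 of WT day 10, graft 2, 3 or 4 of Rnls mutant day 10 or graft 2 or 3 of Rnls mutant day 17).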

How the results depend on the processing

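The rise of the cluster's share of DC kept its direction and its side of the threshold under every alternative run, at 29.7 to 39.1 points when single grafts were left out. Leaving out single grafts gave -7.23 to 2.67 points for the genotype difference in the share of DC at day 10 and 1.63 to 20.5 points at day 17. For the share of CD45+ cells it gave -0.934 to -0.330 points at day 10, -1.14 to -0.0909 points at day 17 and 0.690 to 1.21 points between days, which passed without graft 3 of Rnls mutant day 10 (1.09) and without graft 1 (1.21) or graft 4 (1.18) of WT day 17. Without cells with a Mki67 or Top2a UMI, the day 10 genotype difference in the share of DC was 0.769 points and the day difference in the share of CD45+ cells 1.08 points, which passed (exact permutation p = 0.0257).

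Counts of genes moved more. Without the filter on low counts, 43 genes passed between genotypes at day 10, 30 at day 17 and 25 in the mean of both days, 28 in the test of whether these differ between days, and 152 against the other DC. With at least 20 cells per graft the counts were 2, 23, 6 and 8 for the genotype tests in the same order, 114 between days in mutant grafts and 639 between days over both genotypes. With at least 5 cells, 717 passed between days in WT and 2 in the test of the genotype difference between days, where 2 also passed without TMM scaling, without the largest cells and by DESeq2. DESeq2 called 2 genes between genotypes at day 17 and 266 between days in WT. Without cells with a Mki67 or Top2a UMI, 14 genes passed between genotypes at day 17, 82 between days in WT, 177 in mutant grafts, 433 over both and 8 in the test of the genotype difference between days. The cause was not tested for any of these, apart from the smaller number of grafts that the 20 cell minimum and the removal of cells leave.

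When single grafts were left out, 0 to 1 genes passed between genotypes at day 10, 1 to 22 at day 17 (22 without graft 2 of WT day 17), 0 to 8 in the mean of both (8 without graft 3 of WT day 17) and 0 to 15 in the test of the genotype difference between days (15 without graft 2 of WT day 17). Between days, 198 to 506 passed in WT (198, 230 and 234 without graft 2 or 3 of WT day 10 or graft 3 of WT day 17), 228 to 515 in mutant grafts (228, 252, 251, 283 and 267 without graft 1 or 2 of Rnls mutant day 17 or graft 2, 3 or 4 of Rnls mutant day 10) and 870 to 1178 over both, and 51 to 97 against the other DC. Leaving a group with 1 graft assumes that it varies like the others. The planned comparisons with the other DC at a minimum of 20 cells, and with the largest other cluster at 10 cells, could not be fitted. Nor could the comparison with the other DC be fitted without graft 2 of WT day 17, the only graft of its group in it.

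The hashtag number as replicate block gave 0 genes between genotypes at day 10 and 0 at day 17, 490 between days in WT, 271 in mutant grafts and 960 over both. Deviations of same-numbered grafts correlated at -0.036 to 0.18, over 0.1 in 3 of 5 pairs. These values cannot decide whether the numbers pair the grafts, since both WT grafts of day 17 deviate from their mean as mirror images. The paper calls the replicates of these data paired, but the labels do not say which grafts shared a mouse, so the main tests treated them as unpaired.

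Between days, leaving out the cells with a Mki67 or Top2a UMI also ended, with the direction kept, the calls of B2m, Calr, Cd36, Cd74, Cd86, Cd207, Clnk, Flt3, Gbp2, Havcr2, Idi1, Itga4, Plpp1, Psmb8 and Rab43, and at least 20 cells per graft those of Cd207, Cxcl10, Gbp2, Havcr2, Idi1, Psme2 and Rab43.

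Some log2 values that had not passed changed sign. Without graft 3 of WT day 17 the day change was -0.14 for Gcsam, -0.23 for Irf8 and -0.43 for Itgae, and the genotype difference of Serpinb1a was 1.88, while the other end of the range over grafts was 0.74, 0.21, 0.47 and -7.41. Irf8 was -0.032 without TMM scaling and -0.0028 without graft 2 of Rnls mutant day 10, where Mki67 was 0.21 (its other end -0.74). Ppt1 was -0.023 and Zbtb46 -0.00671 with at least 20 cells, and Ppt1 was -0.21 without the cells with a Mki67 or Top2a UMI and -0.019 without graft 2 of WT day 17 (other end 0.20). The genotype difference of Xcr1 was -0.056 at day 10 without graft 4 of WT day 10 (other end 0.34), and at day 17 it was -0.091 with at least 20 cells, -0.20 without the cells with a Mki67 or Top2a UMI and -0.14 without graft 2 of WT day 17 (other end 0.84). Cst3, whose day change had passed against the other DC (-0.78), was 0.42 against the largest other DC cluster alone at a minimum of 5 cells. Low counts per graft limit what can be seen for rare genes.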
